A study of Mus musculus with 16 samples.

Results

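Endothelial cells and pericytes were followed through a set of 35 marker genes in cortical RNA from mice with altered ERK/MAPK signaling. A gene was kept where a probe set carried its symbol alone in both value tables, and the brightest probe set stood for it. This left 33 of the 35 genes, out of 18962 genes with a symbol of their own in both tables (19938 in the table of P9 and P14, and 22180 in the table of P21). The list held 6 junction and adhesion genes, 5 receptors for VEGF, angiopoietin and TGF-beta ligands, 6 blood-brain barrier transporters, 4 other endothelial genes, 2 SOX transcription factors, 7 pericyte genes and 3 smooth muscle contractile genes. Ly6a had no probe set of its own in either table, and Ly6c1 had one only on the P21 array. Members were taken by name and not by a limit on their response, although earlier results of these data were known.

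Each mouse gave 1 Affymetrix array of bulk cortical RNA, read as log2 values after RMA. For loss of function, the Map2k1/2;Neurod6-Cre mice at P14 were 3 mutants numbered 1, 9 and 11 beside 3 controls numbered 2, 10 and 12, and at P9 there were 2 mutants (1 and 4) beside 2 controls (2 and 3). Mutants carried Map2k1 alleles with a loxP-flanked exon together with a germline Map2k2 deletion. The Neurod6-Cre line recombines in cortical excitatory neurons and spares interneurons and non-neuronal cells, so Map2k1 was not targeted in vascular cells, while the Map2k2 deletion is in every cell. For gain of function, 3 ca-Map2k1;Neurod6-Cre animals aged P21 (1, 3 and 6), in which the same Cre switches on a constitutively active Map2k1, were set beside 3 controls (2, 4 and 5) on another array type. Controls were littermates with or without Cre, and the sources used here do not give which of them carried Cre or the Map2k2 deletion. The tissue is labelled sensoricortex and is dorsal cortex in the methods, and the genetic background was mixed.

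Cortical capillaries are tubes of endothelial cells sealed by tight junctions. These cells carry transporters for glucose, thyroid hormone and lipids and pump many other molecules back to the blood. Pericytes wrap the tube inside a shared basement membrane, and smooth muscle cells take their place on arterioles. Neurons and glia instruct this wall through VEGF and Wnt ligands, and much of the growth of cortical capillaries falls in the early postnatal weeks.

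The defining markers were measured at all ages. The probe sets of Map2k1 and Map2k2 summarized the whole transcript and did not separate mutants from controls at P14. Map2k1 was there between 10.74 and 10.88 in controls and between 10.79 and 10.91 in mutants, so it could not check the P14 labels. At P21 the Map2k1 groups did not overlap, at 10.08 to 10.12 in controls and 10.29 to 10.38 in mutants (a change of 0.23, adjusted p = 0.310). Neurod6, a transcription factor gene of excitatory neurons, fell in P14 mutants (a log2 change of -3.07, adjusted p = 0.00765). In P21 mutants, which carry the same Cre, its change was -0.24 (adjusted p = 0.463). Cre is under the Neurod6 promoter in these lines, and its part in the P14 fall was not tested. Xist was at 11.78 and 12.03 in P14 mutants 9 and 11 and between 6.13 and 6.52 in the other P14 mice, while Y-linked genes showed the reverse, and all P9 and P21 mice had the male pattern. Mutants 9 and 11 were thus female, and every other mouse of the series was male. At P14 mice 1 and 2 also stood apart from mice 9 to 12 in their vascular genes, as described below.

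The comparison at P14 asked whether genes of the vessel wall differ when excitatory neurons lose Map2k1/2. In the test of 3 mutants against 3 controls, 0 of the 33 genes passed an adjusted p of 0.05, against 217 of 19938 genes in all (1.09%). The mutant mean was below the control mean for 28 of the 33 genes, whereas this held for 41.7% of all genes. The median log2 change was -0.20, beside 0.02 over all genes, and became -0.04 without control 2 and -0.34 without mutant 1. In bulk tissue, fewer cells of a type and less RNA per cell cannot be told apart. An unadjusted p under 0.05 was found for 4 genes, all lower in mutants (8.43% of all genes), and 1, Rgs5, also passed the 1.5-fold limit of the study's methods (1.66% of all genes). Every mutant lay below every control for 6 of the 33 genes (6.52% of all genes), namely Pecam1, Flt1, Kdr, Tie1, Rgs5 and Abcc9. No member had every mutant above every control.

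Mice 1 and 2 held higher vascular values than mice 9 to 12 of the same genotype. Control 2 exceeded the mean of controls 10 and 12 for 29 of the 33 genes, with a median difference of 0.32, beside -0.03 over all genes. Mutant 1 exceeded the mean of mutants 9 and 11 for 26 of them, with a median of 0.27. Averaged over both genotypes the difference was largest for Itm2a (1.33), Vtn (1.11), Acta2 (0.96), Myl9 (0.94) and Emcn (0.85), and it ran the other way for Slco1a4 (-0.45), Abcb1a (-0.17), Vwf (-0.09) and Abcc9 (-0.05). Markers of other cells moved with it, since 11 of 12 meningeal and perivascular fibroblast genes (median 0.44), 10 of 12 microglia and macrophage genes (0.28) and 10 of 12 astrocyte genes (0.27) were higher in mice 1 and 2, and 9 of 10 choroid plexus and ependymal genes were lower (-0.28). Oligodendrocyte genes ran opposite ways by genotype. Control 2 was below the mean of controls 10 and 12 for 9 of 9 (median -0.39). Mutant 1 was above the mean of mutants 9 and 11 for 9 of 9 (median 0.35). The block fit below assumes 1 shared offset for mice 1 and 2, which did not hold for these genes. Among the members, the offsets of control 2 and mutant 1 had opposite signs for Tagln (0.22 and -0.21), Notch3 (0.12 and -0.11) and Tie1 (0.09 and -0.06). For Rgs5 both were positive, at 0.21 and 0.57. The labels do not say how mice 1 and 2 differ from mice 9 to 12.

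With mice 1 and 2 as a block, so that each mutant was compared with controls of its own set, 5 of the 33 genes fell in P14 mutants and 0 rose (1333 of 19938 genes in all, 6.69%, and 3.65% in the lower direction). These were Rgs5, Slco1c1, Emcn, Pecam1 and Eng. Within mice 9 to 12 alone, Rgs5, Slco1c1 and Emcn passed (3 of 33, beside 4.94% of all genes). The same 3 genes also passed with the block when any of mice 9 to 12 was left out. These 4 fits called 3 to 8 of the 33 genes, beside 2.82% to 4.9% of all genes. Of the 4 fits, Pecam1 and Eng passed only in that without mutant 9 (adjusted p from 0.123 to 0.142 for Pecam1 and from 0.130 to 0.157 for Eng in the others). The block calls rest on limma's moderated variance: with lmFit's own variance and no moderation, 0 of 19938 genes passed.

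Sex bears on these calls. Within mice 9 to 12 both mutants were female and both controls male, so genotype and sex cannot be told apart there. Mice 1 and 2 were both male, and mutant 1 was below control 2 for 29 of the 33 genes (53.3% of all genes), with a median difference of -0.25 beside -0.01 over all genes. The mean of mutants 9 and 11 was below that of controls 10 and 12 for 25 of the 33 (39.7% of all genes), with a median of -0.17 beside 0.04. Both differences were negative for 23 genes and positive for 2, Abcg2 and Cd34. With the block and sex in 1 fit the change of genotype is the difference between mice 1 and 2, 1 mouse of each genotype. The spread within groups then comes from mice 9 to 12 alone. With both terms 0 of 33 genes passed (0.908% of all genes), the lowest adjusted p being 0.110 for Slco1c1. With sex and no block, 0 of 33 passed (0.191% of all genes), 0 had an unadjusted p under 0.05, and the median change was 0.040. The only females are mutants 9 and 11, so in that fit the change of genotype is mutant 1 minus the mean of controls 2, 10 and 12. Mutant 1 is of the set with higher vascular values, so the difference between sets enters these changes and their median. Emcn and Eng had changes above 0 (0.18 and 0.09), while Rgs5, Pecam1 and Slco1c1 stayed below 0 (-0.29, -0.11 and -0.02). The fit thus cannot tell whether sex accounts for the lower values.

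**Figure D1:**
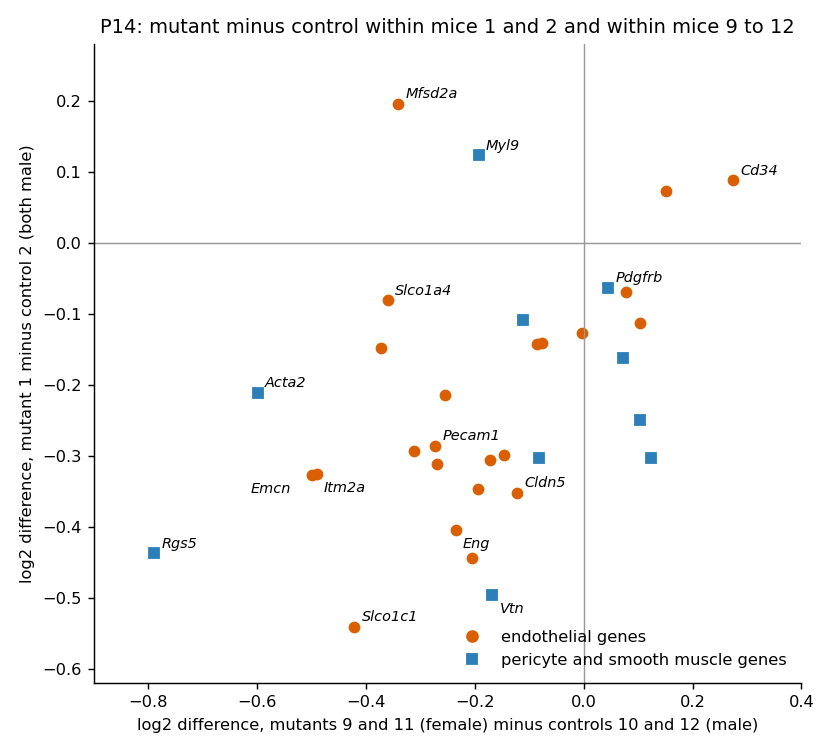
Log2 difference between mutant 1 and control 2, both male (vertical axis), against the log2 difference between the means of mutants 9 and 11, female, and controls 10 and 12, male (horizontal axis). Each point is 1 of 33 genes, circles endothelial and squares pericyte or smooth muscle, and 23 of them lie in the lower left part, with Rgs5 and Slco1c1 farthest out.

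Rgs5, a regulator of G protein signaling that marks brain pericytes, had the largest change at P14. Its log2 values were 9.70, 9.52 and 9.45 in controls 2, 10 and 12 and 9.26, 8.80 and 8.59 in mutants 1, 9 and 11. The groups did not overlap, and the mutant was lower in each set. The change was -0.67 ± 0.17 (SE, n = 3 and 3), or 1.59-fold lower, with an adjusted p of 0.170, and the SE was 0.09 and the adjusted p 0.00534 with the block. Without mutant 1 and with no block it also passed (adjusted p = 0.0213, beside 1.52% of all genes called). Both mutants left there were female and all controls male, so genotype and sex cannot be told apart in that fit. With the block and sex the change was -0.44, with an adjusted p of 0.242.

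Slco1c1 encodes a thyroxine transporter of brain endothelium that astrocytes also express. Its values were 11.08, 10.28 and 10.31 in controls 2, 10 and 12 and 10.54, 9.94 and 9.80 in mutants 1, 9 and 11. Mutant 1 was higher than controls 10 and 12, so the groups overlapped, but in each set every mutant lay below every control. The change was -0.46 ± 0.26 (SE, n = 3 and 3), with an adjusted p of 0.820 and, with the block, 0.00603.

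Emcn encodes endomucin, a sialomucin of capillary and venous endothelium. Controls 2, 10 and 12 gave 9.18, 8.45 and 8.38 and mutants 1, 9 and 11 gave 8.85, 7.94 and 7.89. The order by set was as for Slco1c1. The change was -0.44 ± 0.30 (SE, n = 3 and 3), the adjusted p 0.927 and, with the block, 0.00703.

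Pecam1, the adhesion molecule at endothelial cell borders, was at 8.41, 8.14 and 8.16 in controls 2, 10 and 12 and at 8.13, 7.94 and 7.82 in mutants 1, 9 and 11. The groups did not overlap, although mutant 1 lay only just below the lowest control. The change was -0.28 ± 0.12 (SE, n = 3 and 3), with an adjusted p of 0.585 and, with the block, 0.0342. Eng, or endoglin, a TGF-beta co-receptor of endothelial cells, was at 9.44, 8.68 and 8.71 in the same controls and at 9.04, 8.53 and 8.38 in the mutants. Mutant 1 lay above 2 of the 3 controls, and within each set mutants were lower. The change was -0.29 ± 0.25 (SE, n = 3 and 3), with an adjusted p of 0.971 and, with the block, 0.0483, next to the threshold.

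**Figure D2:**
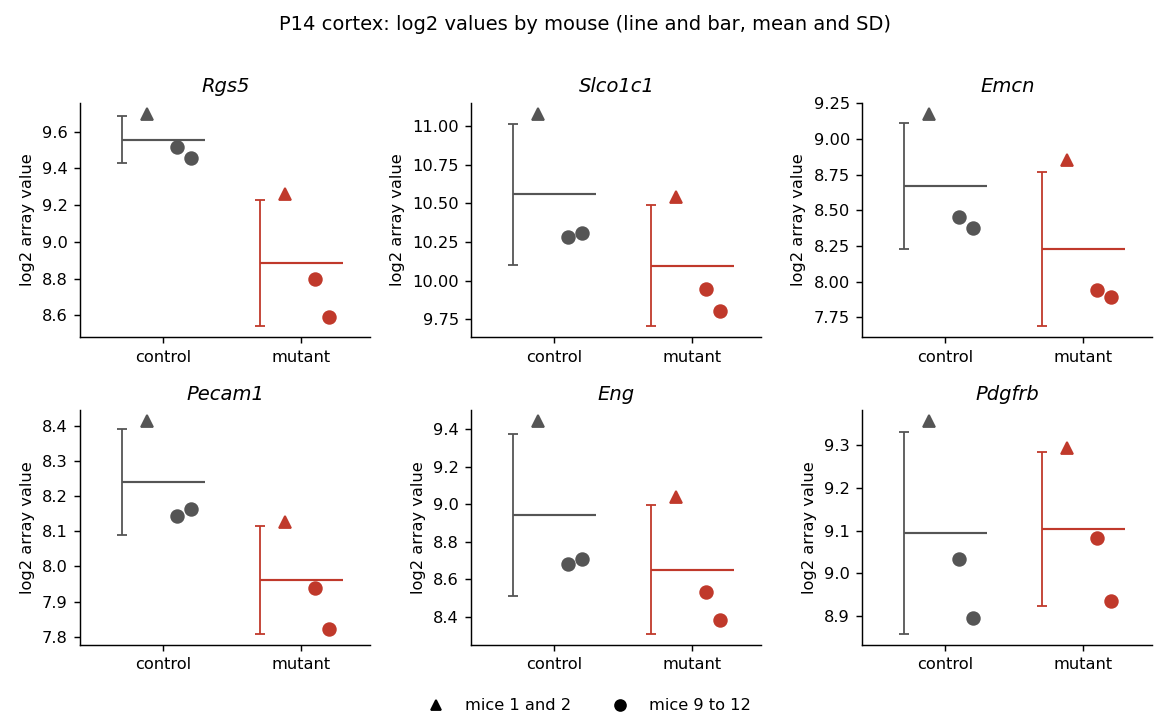
Log2 array values of 6 genes in P14 cortex by mouse, with 3 controls in grey and 3 mutants in red, triangles for mice 1 and 2 and circles for mice 9 to 12. Horizontal lines are group means and vertical bars the SD, and in each set the mutants of Rgs5, Slco1c1, Emcn, Pecam1 and Eng lie below the controls, while those of Pdgfrb overlap with the controls among mice 9 to 12.

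The DNA before the start site is shown for the called genes that had an entry in the RefSeq promoter table, as context for members that moved together. Each run is the 250 bases upstream of the start on the plus strand of build GRCm38.p6, 5′ to 3′, with capitals for the ETS core GGAAG or its complement CTTCC. Rgs5 at chr1:169655251-169655500, Slco1c1 at chr6:141524104-141524353, Emcn at chr3:137340828-137341077 and Eng at chr2:32646345-32646594 held 0, 4, 2 and 2 matches.
Rgs5: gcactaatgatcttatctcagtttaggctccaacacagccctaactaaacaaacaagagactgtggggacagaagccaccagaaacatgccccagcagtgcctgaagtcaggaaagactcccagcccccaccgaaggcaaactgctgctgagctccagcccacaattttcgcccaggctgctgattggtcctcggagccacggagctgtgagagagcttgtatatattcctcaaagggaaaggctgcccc
Slco1c1: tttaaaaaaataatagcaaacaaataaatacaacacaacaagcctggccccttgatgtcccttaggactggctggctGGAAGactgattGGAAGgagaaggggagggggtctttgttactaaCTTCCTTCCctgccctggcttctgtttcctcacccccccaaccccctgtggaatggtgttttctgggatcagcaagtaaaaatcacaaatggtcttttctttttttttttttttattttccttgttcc
Emcn: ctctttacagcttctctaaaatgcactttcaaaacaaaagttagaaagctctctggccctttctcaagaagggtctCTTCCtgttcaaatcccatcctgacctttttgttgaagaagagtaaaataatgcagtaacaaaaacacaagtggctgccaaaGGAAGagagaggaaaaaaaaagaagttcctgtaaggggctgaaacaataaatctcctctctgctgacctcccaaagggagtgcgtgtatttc
Eng: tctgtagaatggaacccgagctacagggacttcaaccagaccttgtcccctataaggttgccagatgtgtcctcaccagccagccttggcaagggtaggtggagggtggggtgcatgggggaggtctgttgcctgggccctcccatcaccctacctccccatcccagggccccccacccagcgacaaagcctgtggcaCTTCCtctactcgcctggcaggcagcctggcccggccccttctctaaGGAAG
ETS factors are broad regulators of endothelial genes. On either strand, GGAAG stood in 15 of the 25 member promoters in the table (60.0%) and in 17193 of 27025 promoters of all genes (63.6%). The SOX core ACAAT was found in 7 of 25 (28.0%, beside 28.3% of all), the hypoxia response element core ACGTG in 3 of 25 (12.0%, beside 16.6%) and a CArG box in 1 of 25, that of Myl9 (4.0%, beside 1.4%). A match describes the letters only.

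The other junction genes were close to their controls' spread. Cldn5, the main claudin of brain endothelium, was at 9.79, 8.91 and 8.95 in P14 controls 2, 10 and 12 and at 9.44, 8.94 and 8.67 in mutants 1, 9 and 11, and the groups overlapped. Its change was -0.20 ± 0.28 (SE, n = 3 and 3), with a 95% interval from -0.85 to 0.45. The changes of Cdh5 (VE-cadherin), Esam and Ocln (occludin) were -0.24, -0.22 and -0.24, and that of Tjp1, the scaffold ZO-1 that other cells also express, was -0.04. With the block their adjusted p-values were 0.0628, 0.110, 0.0739 and 0.720, and that of Cldn5 was 0.243.

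All 5 receptors had lower means in P14 mutants. Flt1, a VEGF receptor that also acts as a decoy, was at 8.87, 8.75 and 8.86 in controls 2, 10 and 12 and at 8.56, 8.64 and 8.43 in mutants 1, 9 and 11. The groups were apart, the change was -0.28 ± 0.09 (SE, n = 3 and 3), and the adjusted p was 0.324 (0.0650 with the block). Kdr, the main signaling VEGF receptor, was at 8.34, 8.10 and 8.09 in controls and 8.05, 7.92 and 7.65 in mutants, in the same order of mice. These groups were also apart, with a change of -0.31 ± 0.13 (SE, n = 3 and 3) and an adjusted p of 0.585 (0.0657 with the block). The angiopoietin receptor Tek and its partner Tie1 gave -0.28 and -0.20, with adjusted p-values of 0.0759 and 0.169 with the block.

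Among transporters Slc2a1, the glucose transporter of the barrier, was at 11.46, 10.85 and 10.85 in P14 controls 2, 10 and 12 and at 11.31, 10.59 and 10.35 in mutants 1, 9 and 11. Mutants were lower within each set, but mutant 1 was above controls 10 and 12. The change was -0.30 ± 0.27 (SE, n = 3 and 3), with an adjusted p of 0.0828 with the block. The organic anion transporter Slco1a4 had a change of -0.27 and the lipid transporter Mfsd2a one of -0.16. The efflux pumps gave -0.11 for Abcb1a and 0.12 for Abcg2, a gene whose mean was higher in mutants.

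Of the remaining endothelial genes, Itm2a, a membrane protein gene of brain endothelium, had a change of -0.44 with the largest SE of the 33 genes, 0.48. Vwf, the clotting glycoprotein, gave -0.10. Cd34, a sialomucin shared with progenitor cells, was higher in mutants by 0.21, with an adjusted p of 0.105 with the block. The endothelial transcription factors Sox17 and Sox18 both gave 0.03.

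Rgs5 was the 1 pericyte gene called with the block at P14. Pdgfrb, the receptor through which endothelial PDGF recruits pericytes, was at 9.36, 9.03 and 8.90 in controls 2, 10 and 12 and at 9.29, 9.08 and 8.94 in mutants 1, 9 and 11. The groups overlapped fully, with a change of 0.01 ± 0.15 (SE, n = 3 and 3) and, with the block, a 95% interval from -0.16 to 0.17. Kcnj8 and Abcc9, adjacent genes for the pore and the regulatory subunit of an ATP-sensitive potassium channel of pericytes, gave -0.01 and -0.11, and Notch3, the Notch receptor of mural cells, gave -0.01. Vtn (vitronectin) and the aminopeptidase gene Anpep gave -0.28 and -0.16. The smooth muscle genes Acta2, Tagln and Myl9 gave -0.47, -0.02 and -0.09, with block adjusted p-values of 0.137, 0.938 and 0.609.

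At P9 the same comparison in younger mice gave 0 of 33 genes past the adjusted threshold (15 of 19938 in all, 0.0752%). Means were higher in mutants for 21 of the 33 genes, beside 51.8% of all genes, and the median change was 0.09 beside 0.01. An unadjusted p under 0.05 was found for 5 genes that were higher and 1 that was lower (10.5% of all genes), and 1, Slco1a4, passed the study's limits (1.11% of all genes). Every mutant was above every control for 13 of 33 (22% of all genes) and below for 3 (19.7% of all genes), shares that are wide because each group had 2 mice.

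Slco1a4, which carries organic anions and thyroid hormone at the endothelial surface, was at 6.95 and 6.48 in P9 controls 2 and 3 and at 7.25 and 7.60 in mutants 1 and 4. The groups did not overlap, with a change of 0.71 ± 0.19 (SE, n = 2 and 2) and an adjusted p of 0.305, and without control 3 or mutant 4 its unadjusted p or its fold no longer met the study's limits. Abcg2, an efflux pump, was at 7.86 and 7.96 in controls and 8.39 and 8.17 in mutants, a change of 0.37 ± 0.11 (SE, n = 2 and 2, adjusted p = 0.330). Both transporters thus had higher mutant values at P9 without a call.

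Pdgfrb was at 7.58 and 7.59 in P9 controls and at 7.83 and 7.97 in mutants, with a change of 0.31 ± 0.09 (SE, n = 2 and 2, adjusted p = 0.333). Ocln went the other way, at 6.39 and 6.38 in controls and 6.10 and 6.13 in mutants, with a change of -0.27 ± 0.08 (SE, n = 2 and 2, adjusted p = 0.340). Neither gene's groups overlapped. Slc2a1 was at 9.36 in both controls and at 9.44 and 9.84 in mutants 1 and 4, and mutant 4 set most of its change of 0.28. Acta2 and Myl9, contractile genes, gave 0.25 and 0.39 with adjusted p-values of 0.371 and 0.374.

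Of the genes that fell at P14 with the block, 4 had overlapping groups at P9. Rgs5 was at 8.88 and 8.52 in controls and 8.67 and 8.65 in mutants, a change of -0.04, and Slco1c1, Emcn and Pecam1 gave -0.03, 0.08 and -0.02. Eng, at 7.45 and 7.38 in controls and 7.51 and 7.68 in mutants, did not overlap and gave 0.18 (adjusted p = 0.568). Cldn5 was at 8.55 and 8.68 in controls and at 8.58 and 8.59 in mutants, and Pecam1 at 6.82 and 6.80 in controls and at 6.69 and 6.89 in mutants, so both overlapped. Means of 10 of 12 astrocyte markers were higher in P9 mutants, with a median of 0.16 and no gene called, and 2 of 2 red blood cell markers were also higher (median 0.24). Their part in the vascular values was not tested.

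The change at P14 was set against that at P9 with an interaction term. It passed the adjusted threshold for 0 of 33 genes (0% of all genes), with a lowest adjusted p of 0.991. The unadjusted p was under 0.05 for 3 genes, all with a lower change at P14 (4.26% of all genes). These were Slco1a4 with -0.98 ± 0.31 (SE), Rgs5 with -0.63 ± 0.26 and Abcb1a with -0.43 ± 0.19. The median difference of the changes was -0.26 over the members and 0.01 over all genes, in a fit without the block. With mice 1 and 2 of P14 as a block, an alternative added after seeing the data, the interaction again passed for 0 of 33 genes (0.115% of all genes), with a lowest adjusted p of 0.15 for Slco1a4, and 15 genes had an unadjusted p under 0.05, all with a lower change at P14 (11.2% of all genes). A difference between the ages was thus not shown for any member in either fit.

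**Figure D3:**
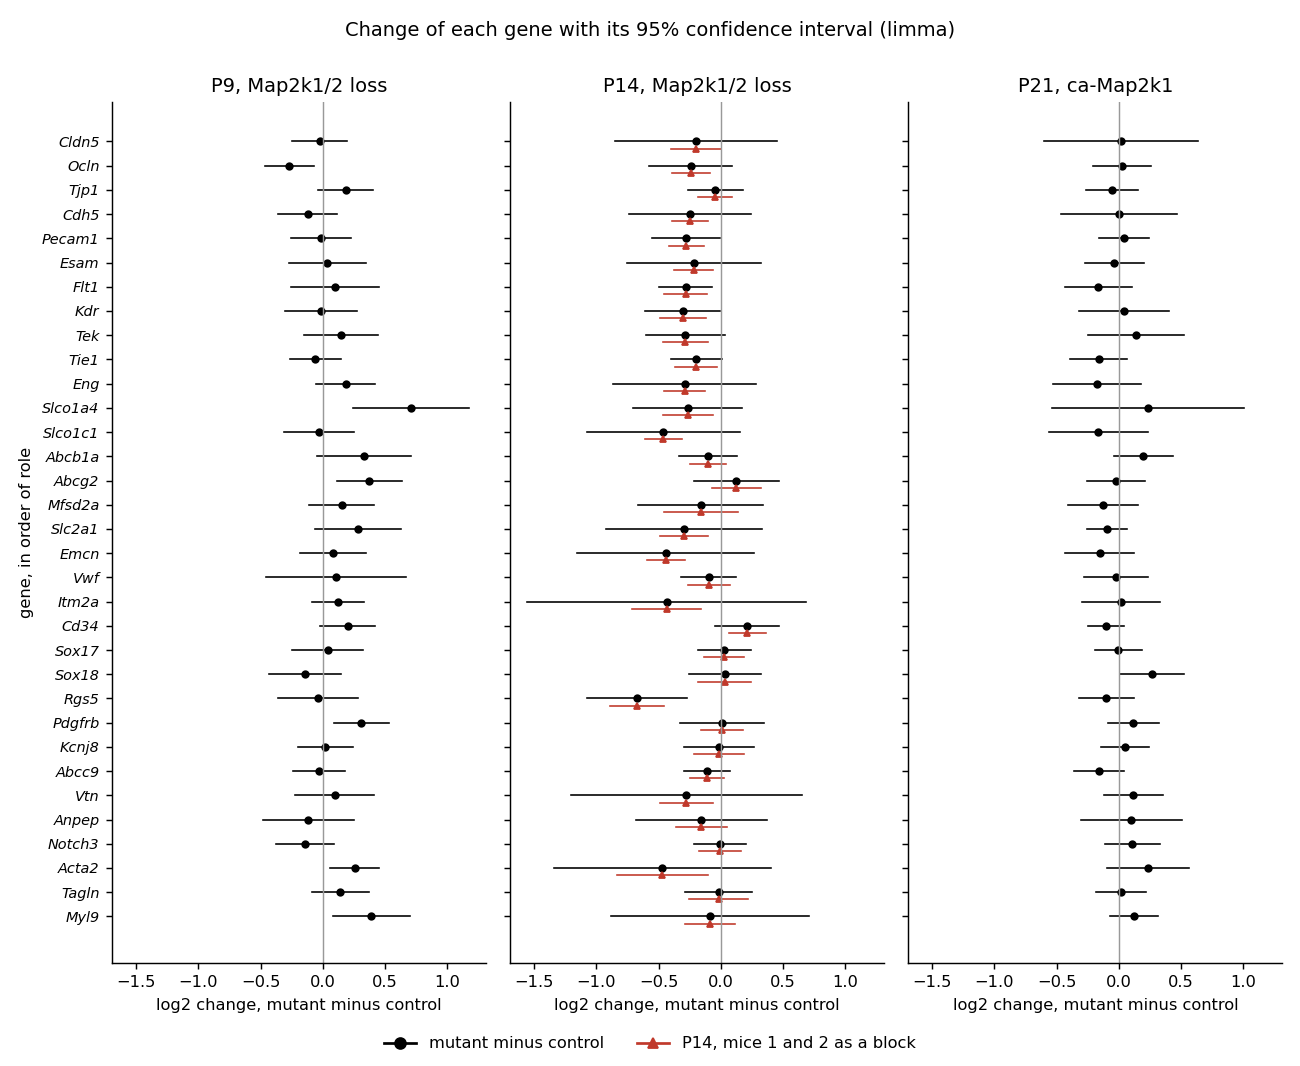
Log2 change, mutant minus control, of each of the 33 genes with its 95% confidence interval from limma at P9 (2 and 2 mice), P14 and P21 (3 and 3 mice each). Black circles are the fit without a block, and red triangles at P14 that with mice 1 and 2 set apart by a block, which leaves the estimates in place and shortens the intervals.

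Vascular genes were also compared between P9 and P14 controls, as values without a test. Age and the separate normalization of the ages cannot be told apart. After the 10 arrays were quantile-normalized together, 17 members were higher and 16 lower in P14 controls, with a median of 0.01. Over all genes 10291 of 19938 were higher, with a median of 0.02, so the members as a set were near all genes. The largest increases were 1.34 for Anpep, 1.11 for Acta2, 0.95 for Cd34 and 0.92 for Emcn. The VEGF receptor Kdr and the pump Abcg2 were lower by 1.10 and 1.03 (differences of -1.10 and -1.03). For Kdr the P14 controls spanned 7.36 to 7.69 and the P9 controls 8.55 to 8.61 on the joint scale.

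At P21 the ca-Map2k1 mutants tested the opposite manipulation. Of the 33 genes 0 passed the adjusted threshold, as did 0% of the 22180 genes. Means were higher in mutants for 18 genes and lower for 15, with a median of 0.01, the same as over all genes (from -0.09 to 0.08 with a mouse left out). An unadjusted p under 0.05 was found for 1 gene, Sox18 (10.4% of all genes), and 0 passed the study's limits (0.604% of all genes). Every mutant was above every control for 2 genes, Sox18 and Abcb1a (8.15% of all genes), and below for 1, Cd34 (7.67% of all genes).

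Sox18, a transcription factor of vessel and lymphatic development, was at 6.16, 6.43 and 6.56 in P21 controls 2, 4 and 5 and at 6.59, 6.75 and 6.60 in mutants 1, 3 and 6. The mutants lay just above the highest control, with a change of 0.26 ± 0.11 (SE, n = 3 and 3, adjusted p = 0.472). Abcb1a, the P-glycoprotein pump, was at 7.30, 7.56 and 7.66 in controls and 7.66, 7.66 and 7.79 in mutants, a change of 0.20 ± 0.10 (SE, n = 3 and 3, adjusted p = 0.566), with control 5 and the lower mutants equal at this rounding. Control 2 was the low mouse for both genes.

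Abcc9 was at 7.46, 7.31 and 7.41 in P21 controls 2, 4 and 5 and at 7.20, 7.12 and 7.38 in mutants 1, 3 and 6, with a change of -0.16 ± 0.09 (SE, n = 3 and 3, adjusted p = 0.582). Mutant 6 overlapped with the controls. Cd34 was at 10.64, 10.66 and 10.64 in controls and at 10.54, 10.58 and 10.50 in mutants, a small but separate difference of -0.10 ± 0.06 (SE, n = 3 and 3, adjusted p = 0.615). The genes that fell at P14 with the block gave -0.10 for Rgs5, -0.17 for Slco1c1, -0.16 for Emcn, 0.04 for Pecam1 and -0.18 for Eng, with adjusted p-values from 0.704 to 0.910.

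The defining markers overlapped between the P21 groups. For Cldn5 and Pecam1, but not for Slc2a1 and Pdgfrb, control 5 and mutant 6 were both the highest of their groups. Cldn5 was at 6.60, 6.66 and 7.52 in controls 2, 4 and 5 and at 6.67, 6.79 and 7.36 in mutants 1, 3 and 6. Pecam1 was at 7.62, 7.58 and 7.84 in the controls and at 7.67, 7.70 and 7.79 in the mutants, and Slc2a1 spanned 11.33 to 11.46 and 11.28 to 11.35. Pdgfrb was at 7.98, 8.10 and 8.06 in the controls and at 8.13, 8.04 and 8.32 in the mutants.

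Over all members control 5 exceeded the mean of controls 2 and 4 for 31 of 33 genes, with a median difference of 0.27. Mutant 6 exceeded the mean of mutants 1 and 3 for 24, with a median of 0.13. In control 5 all 12 meningeal and perivascular fibroblast markers were also higher (median 0.62) and all 9 oligodendrocyte markers lower (-0.41), whereas in mutant 6 the meningeal median was 0.00. Without control 5 and mutant 6 the median change of the members was 0.06, and 0 genes passed.

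**Figure D4:**
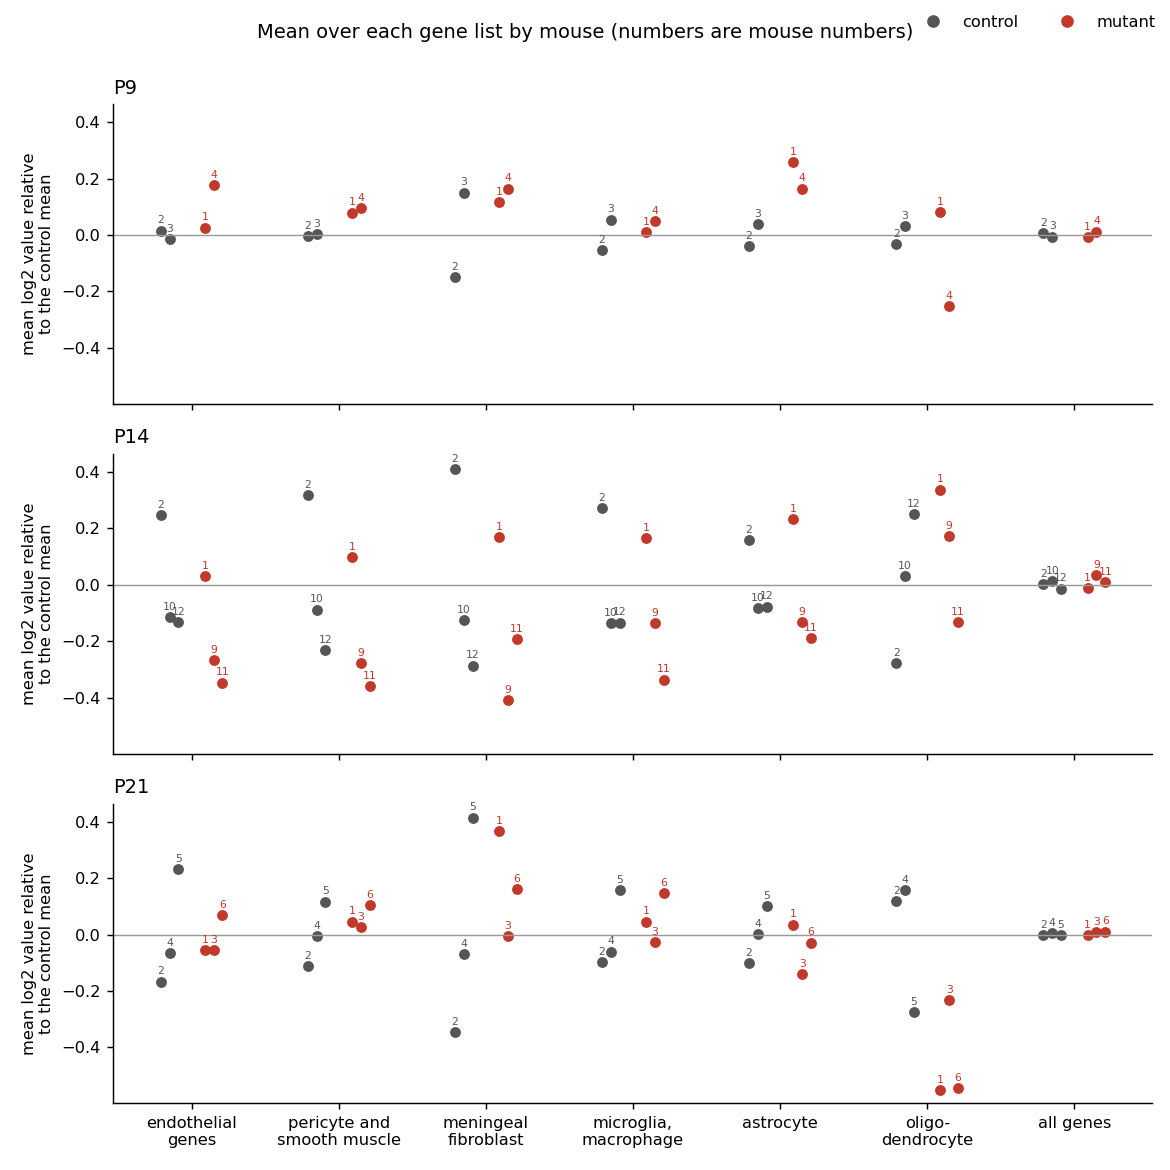
Mean log2 value of each gene list relative to the control mean of that age, by mouse, for controls in grey and mutants in red, with mouse numbers above the points. At P14 mice 1 and 2 are the highest of their genotypes for the vascular, meningeal, microglial and astrocyte lists, and at P21 control 5 is the highest control for the same lists, while the mean of all genes lies near 0 in every mouse.

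Signals that reach the vessel wall were read from further lists. Of 27 vascular growth signals and other receptors, 1 fell in P14 mutants without a block (1.09% of all genes were called). This was Nrp1, a VEGF and semaphorin co-receptor that neurons also express, at 9.21 ± 0.30 in controls and 8.08 ± 0.17 in mutants (SD, n = 3 and 3), a change of -1.13 with an adjusted p of 0.0284. At P9 its change was -0.76, with an adjusted p of 0.192. With the block Vegfa, the main angiogenic ligand, also fell, with a change of -0.25 (adjusted p = 0.0474), and Hey1, a Notch target, rose by 0.32 (adjusted p = 0.0172), so that 3 of 27 were called beside 6.69% of all genes. The median change of this list was -0.07 at P14.

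Of 15 genes of the Wnt and Norrin barrier pathway 0 passed without a block, and with the block 1 rose, Wnt7b, a ligand from neurons and glia (8.22 to 8.71, a change of 0.48, adjusted p = 0.0744 and, with the block, 0.00556). The pathway's median was -0.01, and 1 of 15 is near the share of all genes called with the block (6.69%). In the lists that follow, 2 of 13 and 3 of 16 were called beside the same 6.69%. Of 13 basement membrane genes, with the block, Lama4, a laminin chain of vessels, rose by 0.71 (adjusted p = 0.00983, and 0.0557 without it). Nid1 (nidogen) fell with the block, with a change of -0.39 (adjusted p = 0.0180). At P9 the changes of Hey1, Wnt7b, Lama4 and Nid1 were 0.40, 0.34, 0.51 and -0.17, with none called. Of 16 hypoxia response genes, with the block, P4ha1 and Pfkfb3 fell (-0.92 and -0.45, adjusted p = 0.000952 and 0.00765) and Ndrg1 rose (0.35, adjusted p = 0.0117). The median of the list was 0.03. At P9 P4ha1 and Ndrg1 had changes of -0.45 and -0.34, neither called, so Ndrg1 had the other sign there. P4ha1 encodes a collagen prolyl hydroxylase, Pfkfb3 a regulator of glycolysis and Ndrg1 a stress-responsive protein.

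Vascular markers outside the 33 genes were read the same way. Of 40 other endothelial genes, 0 passed without a block and 5 fell with it (Fn1, Cldn1, Cd93, Ly6e and Ctla2a, changes from -0.31 to -0.61), with a list median of -0.08, beside 1.09% of all genes called without the block and 3.65% called lower with it. At P9 Fn1, Cldn1 and Ctla2a had changes of -0.31, -0.67 and 0.38, none called, so Ctla2a had the other sign there. Fn1 encodes fibronectin, which fibroblasts and other cells also make. Of 26 other mural cell genes 1 fell with the block, Aspn (-0.45, adjusted p = 0.0318), a share near that of all genes, and the median was -0.03. These medians stand beside -0.20 for the 33 genes, and their difference was not tested.

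Markers of other cells gave the following at P14. In mutants 11 of 12 meningeal and perivascular fibroblast genes were lower (median -0.16, mean log2 value over the list from 8.69 to 9.39 in controls and from 8.57 to 9.14 in mutants), as were 10 of 12 microglia and macrophage genes (median -0.09, 8.39 to 8.80 and 8.19 to 8.69). Within mice 9 to 12 alone, 7 of 12 meningeal and 8 of 12 microglial genes were lower (medians of -0.07 and -0.07). With the block 0 of either list passed. Of 12 astrocyte genes 1, the water channel gene Aqp4, fell with the block (-0.30, adjusted p = 0.0251, 6.69% of all genes being called), with a list median of -0.03. Of 9 oligodendrocyte genes 7 had higher means (median 0.17), but within mice 9 to 12 the means of 8 were lower (median -0.12). Their part in the vascular values was not tested.

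At P21 the nearest to a call among these lists was Apln, which encodes a peptide of sprouting endothelial tips. It was at 8.01 ± 0.12 in controls and 7.36 ± 0.11 in mutants (SD, n = 3 and 3), a change of -0.65 with an adjusted p of 0.158. Oligodendrocyte markers were lower in P21 mutants for 9 of 9 genes, with a median of -0.52, and 11 of 12 meningeal genes were higher, with a median of 0.18. None of these genes passed the adjusted threshold at P21.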

How the data were processed

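The authors deposited log2 values made with the RMA algorithm (background adjustment, quantile normalization and median polish), using Partek 6 according to the submitters' processing notes. The build behind the array annotation was not given in the sources used here. A single table holds P9 and P14, normalized apart by age, and P21 has its own. Precision is limited by the number of arrays, 1 per mouse, which have no depth. Probe sets were named from the platform annotation, with 21789 of 35557 (P9 and P14) and 23521 of 41345 (P21) carrying 1 symbol, 1621 and 1820 several, and 12147 and 16004 none. Only the first kind was used, the brightest per gene.

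Mutants were compared with controls separately at every age by limma 3.58.1 (lmFit, eBayes; R 4.3.3), and p-values are two-sided and adjusted by Benjamini-Hochberg across the whole table. The block and interaction fits followed the same steps. All adjusted p-values are from these fits, and a gene was called under 0.05. The study's own limits, an unadjusted p under 0.05 and a change over 1.5-fold, were counted beside them. The scripts were tested on simulated data. The members, the other gene lists and their tests were chosen with earlier results of these data known. Mouse values are given for members called in the fit without a block at any age, or in the block fit with no further change. They are also given for the 4 members of lowest unadjusted p at each age, and for Cldn5, Pecam1, Slc2a1 and Pdgfrb. From other lists, called genes and up to 2 more by p were chosen. Fn1, Hey1 and the other genes named with the block were chosen for those calls. Alternatives were quantile normalization, median centring, a filter at the 30th percentile of brightness, no, or trended and robust, moderation, the mean of probe sets, all probe sets, each mouse left out, both ages in 1 fit, the block, mice 9 to 12 alone and sex. Block fits combined with quantile normalization, no moderation, sex or a left-out mouse, the block in the interaction fit, and P21 without control 5 and mutant 6, were added after seeing the data. Promoters are from RefSeq (GRCm38.p6). P-values measure the spread between mice.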

Additional observations from a re-analysis of the deposited data

How the results depend on the processing

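The 0 calls at P9 and P21 held under every alternative run for them, and the 0 calls for the difference between P14 and P9 under the alternatives run, quantile normalization of the 10 arrays together and the block. At P14 the number of members called was 5 with mice 1 and 2 set apart by a block (6.69% of all genes) and 3 in mice 9 to 12 alone (4.94%). It was 8 with the block and quantile normalization (6.81%). With a mouse left out it was 0 to 1 (0.135% to 1.52%), rising to 3 to 8 with the block and a mouse left out (2.82% to 4.9%). Members past the study's limits at P14 numbered 1 in the fit without a block, 2 within mice 9 to 12, 0 with sex, 0 with the block and sex, 0 to 5 with a mouse left out (5 without mutant 1, 0 without mutant 11) and 0 to 2 with the block and a mouse left out. The P14 median of -0.20 became 0.040 with sex and no block, a fit that compares mutant 1 alone with the controls. It ran from -0.34 to -0.04 with a mouse left out (-0.04 without control 2). At P9 the number past the study's limits was 0 with no moderation and 0 to 1 with a mouse left out, and the median ran from 0.029 (without mutant 4) to 0.15. Of the 5 members called with the block, Emcn and Eng turned to 0.18 and 0.09 with sex and no block. There mutant 1, of the higher set, stands alone against the controls. None of the 5 turned in the other fits run. Over all members the sign of values uncalled in both fits changed in 56, 20 and 36 of 792, 394 and 462 values at P14, P9 and P21. Calls in the whole table ranged from 0 (block, no moderation) to 1358 at P14 (217 in the fit reported), from 0 to 235 at P9 (15) and from 0 to 16 at P21 (0), the highest at P9 and P21 with trended and robust moderation. No paired analysis was possible because mutants and controls of an age share no mouse number and the labels do not say which were pairs. Sex could not be fitted at P9 and P21, where all mice were male. In comparisons left with 1 mouse in a group, that mouse was assumed to vary like the others. With 2 or 3 mice per group, differences under the intervals given were not detectable.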

Other observations

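Ly6c1, a surface protein gene of brain endothelium, had a probe set of its own only on the P21 array and so lay outside the rule. Its log2 values were 5.97, 5.81 and 6.04 in controls 2, 4 and 5 and 5.43, 5.21 and 5.43 in ca-Map2k1 mutants 1, 3 and 6. Every mutant lay below every control, with a change of -0.58 ± 0.09 (SE, n = 3 and 3), a 95% interval from -0.80 to -0.36, an unadjusted limma p of 0.000285 and an adjusted p of 0.193. Its level at P9 and P14 was not analysed here.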
